A study of Mus musculus with 6 samples.

Results

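B cell and plasma cell genes were followed in RNA from CD8+ T cells. The 9 genes were listed by name, matched to Ensembl identifiers through their mouse symbols, and are 9 of the 55414 genes in the deposited table. All 9 passed the filter on low counts and were tested. The cells came from spleen and lymph nodes of mice of the OT-I genotype, whose T cell receptor recognises a fragment of ovalbumin. There were 3 groups of 2 libraries: cells 4 days after the N4 peptide, which is that fragment, cells 4 days after T4, a variant of lower potency, and naive cells. The design text gives anti-OX40 and anti-41BB costimulation with both peptides and names no treatment for naive cells, so effects of peptide and of antibodies cannot be told apart against naive. All 6 libraries share the OT-I receptor. The sources used here give neither the age of the mice, nor the sorting gate, nor whether each replicate was a different mouse. The p-values therefore describe no more than the variation among these libraries, and that variation may be technical.

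A B cell carries an antibody on its surface as its antigen receptor, and the CD79A and CD79B chains pass the receptor's signal into the cell. When a B cell becomes a plasma cell it switches off much of that surface machinery, including the identity factor PAX5, and turns to secreting antibody with an enlarged endoplasmic reticulum under the control of XBP1. In spleen and lymph nodes these cells lie next to T cells, and CD8+ T cells make no antibody. In bulk RNA, fewer cells of a type and less RNA per cell cannot be told apart.

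For several genes the naive libraries differed from each other more than the libraries of N4 or T4 did. Naive replicate 2 was far above every other library for Jchain, Mzb1 and Sdc1. For Cd79a and Ms4a1 naive replicate 1 was the one further from T4. Values below are CPM, estimated counts scaled to a common library size, after TMM scaling, which corrects for differences in library composition. The ratio of naive replicate 2 to naive replicate 1 was 11.2 for Mzb1, 5.58 for Jchain, 5.35 for Sdc1, 4.03 for Cd79a and 3.96 for Cd22. It was 1.76 for Ms4a1, 1.16 for Xbp1 and 0.93 for Cd79b. In the T4 group the same ratio ran from 0.7 for Cd22 to 1.66 for Sdc1 over the 8 genes other than Pax5, and was 4.07 for Pax5. N4 ratios ran from 0.48 for Cd79b to 1.48 for Sdc1 over 8 genes, while both N4 libraries were at 0 for Pax5. The naive libraries are therefore given apart throughout. Their TMM factors were 1.307 and 0.833, so their ratios depend on the scaling. With scaling by library size alone Mzb1 was at 29.7 and 213.2 CPM in naive replicates 1 and 2, and Xbp1 at 46.8 and 34.6.

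**Figure D1:**
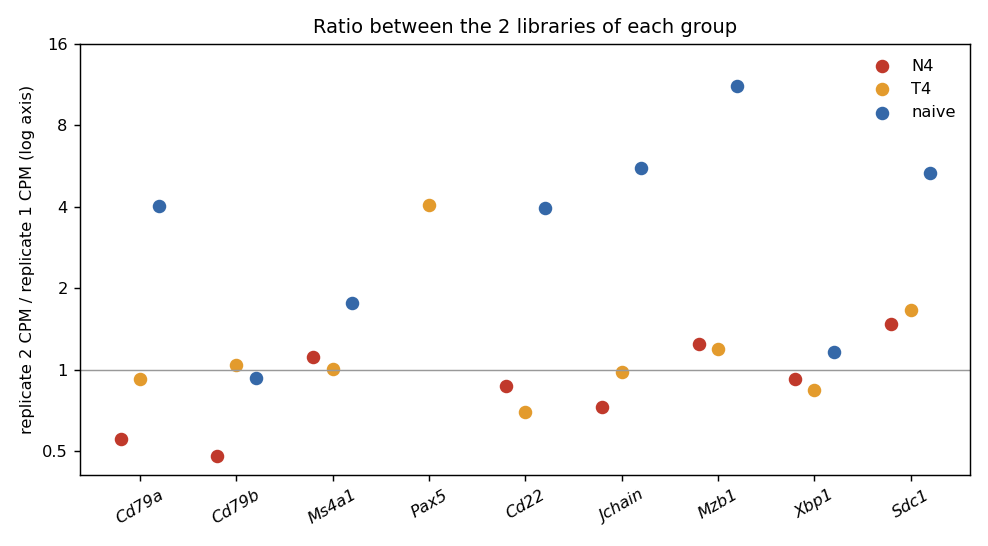
Ratio of replicate 2 to replicate 1 within each group for the 9 genes, on a log axis, as TMM-scaled CPM. Naive ratios reach 11.2 for Mzb1 and lie near 1 for Cd79b and Xbp1. Pax5 has a ratio in T4 alone, because at least 1 library of each other group was at 0.

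The sequences before the start sites of the plasma cell genes Jchain and Xbp1 are shown as background. Their log2 CPM correlated at 0.93 over the 6 libraries, but Jchain ran from 7.99 to 2578 CPM and Xbp1 from 19 to 41.5. A link between sequence and level was not tested. Jchain (chromosome 5, minus strand) encodes the chain that joins antibody units, and Xbp1 (chromosome 11, plus strand) the transcription factor of the secretory programme. Both stretches are the 250 bases before the RefSeq start site in GRCm38.p6, at chr5:88527898-88528147 and chr11:5520391-5520640, and reach no annotated exon of the gene. GRCm38 is not the build named for the deposited values (mm39). The first 30 bases after each start site were not found whole in an annotated transcript of the gene.
Jchain: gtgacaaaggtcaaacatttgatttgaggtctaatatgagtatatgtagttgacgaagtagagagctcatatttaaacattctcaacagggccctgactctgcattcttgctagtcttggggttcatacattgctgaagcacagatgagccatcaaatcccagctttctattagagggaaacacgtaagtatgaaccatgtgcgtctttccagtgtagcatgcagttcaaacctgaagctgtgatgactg
Xbp1: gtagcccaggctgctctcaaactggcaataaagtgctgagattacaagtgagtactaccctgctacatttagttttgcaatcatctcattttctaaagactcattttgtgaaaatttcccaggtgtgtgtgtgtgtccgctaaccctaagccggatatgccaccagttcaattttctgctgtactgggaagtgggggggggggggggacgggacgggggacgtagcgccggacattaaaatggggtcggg
On both strands, neither stretch holds the octamer ATGCAAAT, the EBF pattern CCCNNGGG, the PU.1 pattern GAGGAAG or the consensus endoplasmic reticulum stress element, so no letters are in capitals. Of 32851 upstream stretches of the same length, 1.6%, 11.8%, 10.6% and 0.11% hold them. The motifs can overlap each other, and no match says only that these letters are not in this window.

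Cd79a and Cd79b encode the signalling chains of the B cell receptor, and both were low in N4 and higher in every T4 and naive library. In N4 Cd79a stood at 1.24 and 0.689 CPM, against 36.8 and 34.1 for T4, 12.6 in naive replicate 1 and 50.6 in naive replicate 2. Its T4 libraries lay between the naive libraries, and no N4 library came near either group. Cd79a fell in N4 both against naive, with a log2 fold change of -5.03 (SE 0.76, edgeR adjusted p = 0.017), and against T4, with one of -5.20 (SE 0.77, adjusted p = 0.025). The N4 libraries held Cd79b at 2.06 and 0.987 CPM, those of T4 at 10.6 and 11, and the naive ones at 9.68 and 9. After TMM scaling these values split into a low N4 pair and a tight set of 4 libraries. The tightness depended on the scaling. With scaling by library size alone Cd79b was at 14.4 and 14.1 CPM in T4, 12.6 and 7.5 in naive, and 1.69 and 0.633 in N4. Cd79b fell in N4 as well, with log2 fold changes of -2.62 against naive (SE 0.41, edgeR adjusted p = 0.018) and -2.83 against T4 (SE 0.41, adjusted p = 0.025).

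The partner chains did not keep one ratio across libraries. Each Cd79a count came with 1.66 and 1.43 Cd79b counts in the N4 libraries, 0.288 and 0.322 under T4, 0.77 in naive replicate 1 and 0.178 in naive replicate 2. Per length, as CPM per kb of transcript, Cd79a had a mean level of 24.3 ± 1.31 in T4 (SD, n = 2) against 8.34 ± 0.147 for Cd79b, whereas in N4 the means were 0.661 ± 0.266 and 1.14 ± 0.641. Cd79b has 2 annotated coding transcripts whose first exons start at different places. The longer one, Cd79b-201, held 43% and 49.2% of the counts in T4, and 48.4% and 36.6% in naive libraries. In N4 replicate 1 it held 43.8% of 454 counts, and in N4 replicate 2 it held all 202 counts (exact 95% binomial interval 98.2% to 100%). Intervals cover counting error only. Cd79a has a single annotated transcript.

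Ms4a1, Cd22 and Pax5 are further marks of mature B cells, and they did not follow one order. Ms4a1, which encodes the surface protein CD20, was at 0.666 and 0.742 CPM with N4, 3.46 and 3.5 with T4, 1.93 in naive replicate 1 and 3.4 in naive replicate 2. It was lowest in N4, and no N4 library overlapped another group. Ms4a1 fell in N4, with log2 fold changes of -1.92 against naive (SE 0.42, edgeR adjusted p = 0.039) and -2.30 against T4 (SE 0.43, adjusted p = 0.035). Cd22, an inhibitory receptor of the Siglec family, was at 0.19 and 0.166 CPM with N4, 2.45 and 1.71 with T4, and 0.137 and 0.54 among naive libraries. T4 was the high group for Cd22, and N4 lay within the naive range. For N4 against T4 the fitted log2 change of Cd22 was -3.54 (SE 0.82, edgeR adjusted p = 0.054). For T4 against naive it was 2.62 (SE 0.79, edgeR adjusted p = 0.22) and for N4 against naive -0.92 (SE 0.76, adjusted p = 0.45), and none passed the threshold by edgeR. DESeq2 called Cd22 lower in N4 against T4 (-3.52, adjusted p = 0.00036) and higher in T4 against naive (2.55, adjusted p = 0.028). The latter was past the threshold under 1 of 12 alternative settings. An antisense gene, Gm29439, overlaps exons of Cd22, and the kit named does not mark strand.

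Within libraries, Cd22 counts per Cd79a count were 0.0666 and 0.0503 in T4 and 0.0109 and 0.0107 in the naive libraries. This ratio was nearly the same in both naive libraries, from 60 and 135 Cd22 counts, although their Cd79a levels differed by 4.03 times. Of these Cd22 counts 30% and 10.4% lay in the processed transcript Cd22-206, which held 0% and 0.151% in T4. In N4 the ratio was 0.154 and 0.241, from 42 and 34 Cd22 counts.

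Pax5, the transcription factor that holds B cell identity, was barely detected. It had 0 counts in both N4 libraries and in naive replicate 1, 10 and 39 counts in T4 (0.0248 and 0.101 CPM), and 24 counts in naive replicate 2 (0.0961 CPM). Poisson 95% upper limits for the libraries at 0 were 0.0167 and 0.018 CPM in N4 and 0.0084 CPM in naive replicate 1. As a bound, N4 was set at a floor of 3 counts per library, and the T4 mean was 4.4-fold that floor. The floor lies below the N4 upper limits, so a smaller difference is possible. The Poisson interval of T4 replicate 1 (0.0119 to 0.0455 CPM) overlapped those limits. No comparison of Pax5 passed the test (edgeR adjusted p = 0.25 for N4 against T4 and 0.26 for N4 against naive). All its counts lay in 1 of 20 annotated transcripts, Pax5-201, and 2 other genes overlap its exons on the opposite strand.

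**Figure D2:**
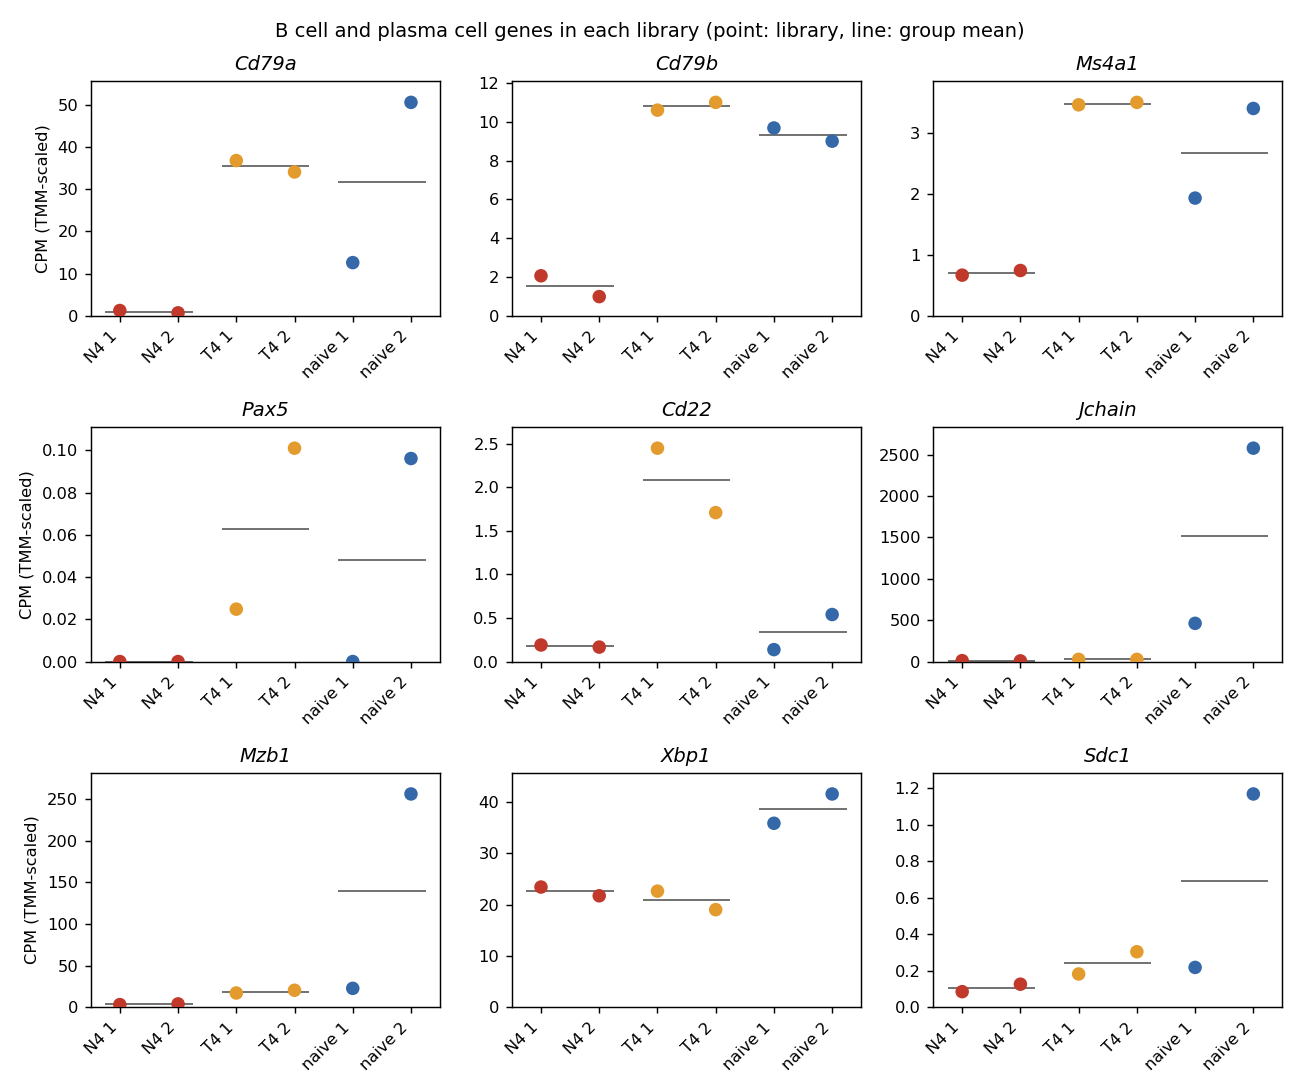
Level of each of the 9 genes in the 6 libraries, as TMM-scaled CPM on linear axes that start at 0 and differ between panels. Points are libraries and lines are group means. Cd79a, Cd79b and Ms4a1 are low in N4 alone, Cd22 is high in T4, and Jchain, Mzb1 and Sdc1 are highest in naive replicate 2.

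The genes of antibody assembly and secretion had their highest values in naive cells. With N4, Jchain was at 11 and 7.99 CPM, with T4 at 26.6 and 26.1, and at 461.6 in naive replicate 1 and 2578 in naive replicate 2. Both naive libraries were far above all others, the T4 libraries were alike, and N4 was lowest. Jchain fell in N4 against naive, with a log2 fold change of -7.33 (SE 0.95, edgeR adjusted p = 0.012). In T4 against naive its log2 fold change was -5.85 (SE 0.89, adjusted p = 0.076), and in N4 against T4 it was -1.48 (SE 0.74, adjusted p = 0.24). The T4 against naive difference was past the threshold without naive replicate 1 (-6.70, adjusted p = 0.0042) and without naive replicate 2 (-4.13, adjusted p = 0.018), and over all alternatives its adjusted p ran from 3.5e-15 to 0.37. Per length Jchain was the most abundant of the 9 genes in both naive libraries, at 326.3 and 1837.6 CPM per kb.

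Mzb1 encodes an endoplasmic reticulum protein that helps antibody assembly. The N4 libraries had 3.3 and 4.12 CPM of it, the T4 libraries 17.2 and 20.5, with 22.8 in naive replicate 1 and 255.9 in naive replicate 2. Naive replicate 1 was close to T4 here, so the naive mean of 139.3 ± 164.9 CPM (SD, n = 2) describes neither library. Mzb1 fell in N4 against naive, with a log2 fold change of -5.23 (SE 1.12, edgeR adjusted p = 0.037), and without naive replicate 2 the log2 fold change was -2.62. For T4 against naive the log2 fold change of Mzb1 stood at -2.89 (SE 1.01, edgeR adjusted p = 0.28), or -0.28 without naive replicate 2, and past the threshold at -3.85 without naive replicate 1. For N4 against T4 it stood at -2.34 (SE 0.99, edgeR adjusted p = 0.18). DESeq2 called Mzb1 lower in T4 against naive (-2.97, adjusted p = 0.0088) and in N4 against T4 (-2.32, adjusted p = 0.028). Exons of Mzb1, on chromosome 18, overlap those of SPATA24 on the same strand, which makes its counts less certain.

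Sdc1 encodes syndecan 1 (CD138), the surface proteoglycan by which plasma cells are commonly sorted. Its level was 0.086 and 0.127 CPM with N4, 0.183 and 0.305 with T4, 0.219 in naive replicate 1 and 1.17 in naive replicate 2, or 19 to 292 estimated counts. Naive replicate 2 was the highest, and the remaining libraries ran from 0.086 to 0.305 CPM. No comparison of Sdc1 passed the test (for N4 against naive, log2 fold change -2.70, SE 1.06, edgeR adjusted p = 0.15). Without naive replicate 2 that log2 fold change was -1.04 (adjusted p = 0.59, range over all alternatives 0.05 to 0.59).

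Xbp1 did not spread as the other plasma cell genes did. Its N4 libraries were at 23.4 and 21.7 CPM, its T4 libraries at 22.6 and 19, and its naive libraries at 35.8 and 41.5. The naive libraries were the highest, and N4 and T4 overlapped. Its log2 fold change was -0.78 in N4 against naive (SE 0.23, edgeR adjusted p = 0.084) and -0.89 in T4 against naive (SE 0.23, adjusted p = 0.18). For N4 against T4 it was 0.12 (SE 0.23, edgeR adjusted p = 0.8, 95% interval -0.45 to 0.68). None passed the threshold by edgeR. DESeq2 called Xbp1 lower in N4 against naive (-0.81, adjusted p = 0.0088) and in T4 against naive (-0.95, adjusted p = 0.0047), where the adjusted p over all 12 alternatives ran from 0.0088 to 0.31 and from 0.0047 to 0.92. With scaling by library size alone the N4 against T4 value turned to -0.74. Each Jchain count came with 2.13 and 2.72 Xbp1 counts with N4, 0.85 and 0.728 with T4, 0.0776 in naive replicate 1 and 0.0161 in naive replicate 2.

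XBP1 becomes an active factor after the enzyme IRE1 removes 26 bases from its messenger RNA, between a pair of CNGCAGN sites. The stretch is shown because it is what separates the active from the inactive message. In transcript Xbp1-201 it is bases 815 to 840, printed in capitals within 60 bases of the transcript.
Xbp1-201: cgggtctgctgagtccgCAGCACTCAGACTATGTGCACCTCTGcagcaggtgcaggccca
Of 4 annotated transcripts 3 contain it and none joins the bases on its sides, so the deposited transcript counts do not tell the forms apart. The share of Xbp1-201 was 93.6% and 90.4% with N4, 85.2% and 77.6% with T4, and 94.4% and 95.7% among naive libraries. Xbp1-204, which has another first exon, held 9.93% and 14.9% in T4, 4.36% and 8.19% in N4, and 2.54% and 1.35% in naive libraries. For Xbp1-201 the exact 95% binomial intervals of N4 replicate 1 (92.9% to 94.2%) and naive replicate 1 (94.1% to 94.8%) overlapped. No test was made on these shares.

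Each comparison was set beside all 23003 genes tested. In N4 against naive 5 of the 9 genes fell and none rose, where 7.18% of all genes were called lower and 4.87% higher (12.1% in either direction). The median log2 fold change was -2.70, or -2.62 with Pax5 at its bound, against -0.09 over all genes. In N4 against T4 3 of 9 fell and none rose (4.47% of all genes called lower, 3.48% higher and 7.96% in all), with a median of -2.34, or -2.30 with the bound, against -0.20 over all genes. In T4 against naive edgeR called none of the 9 (0.117% of all genes), with a median of 0.17 against 0. Of the 9, 4 had an unadjusted p under 0.05 there, beside 3329 of all 23003 genes. DESeq2 called 4, Cd22 higher and Jchain, Mzb1 and Xbp1 lower, beside 1995 of all genes. The comparisons share libraries, so their values stand side by side only. N4 libraries did not overlap naive ones for 7 of the 9 genes, all lower (28.9% of all genes lower, 55.4% in either direction). N4 and T4 did not overlap for 8, all lower in N4 (37.6% of all genes lower, 65.2% in either direction). T4 and naive did not overlap for 6 (48.8% of all genes).

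The calls rest on few libraries. In N4 against naive 1 gene was called without N4 replicate 1, none without N4 replicate 2 and 3 without T4 replicate 2. In N4 against T4 the counts were 1 without N4 replicate 1, 0 without N4 replicate 2 or either T4 library, and 6 without either naive library. Cd22 was past the threshold in N4 against T4 under 7 of 12 alternative settings, where its adjusted p ran from 0.00036 to 0.29 over all 12.

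**Figure D3:**
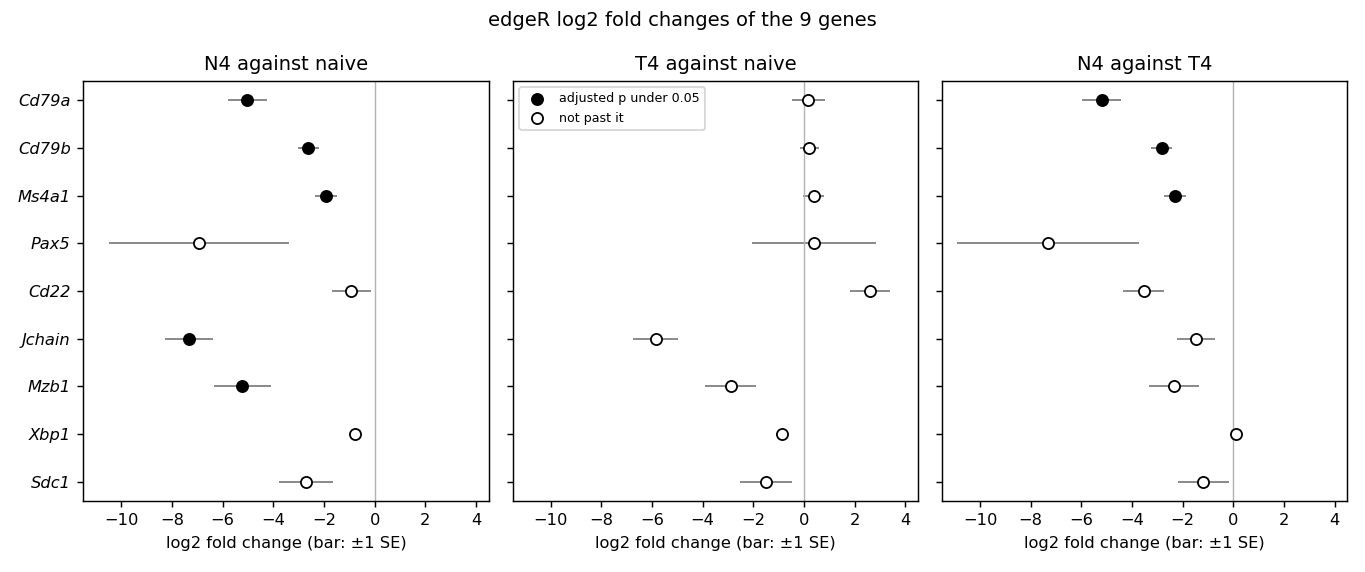
edgeR log2 fold changes of the 9 genes in the 3 comparisons, with bars of 1 SE. Filled points passed an adjusted p of 0.05: 5 genes in N4 against naive, none in T4 against naive and 3 in N4 against T4. Pax5, with 3 libraries at 0, has the widest bars.

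Other B cell genes were taken from lists of known genes, and part of the surface, signalling and transcription factor lists fell in N4. Of 12 other B cell surface genes 11 were tested. In N4 against naive 7 were called lower and in N4 against T4 6, with none called higher (medians -3.12 and -2.91, or -2.88 with bounds). Cd72 stood at 4.23 and 4.88 CPM in N4 and at 30 to 41.8 in the other libraries, and H2-Ob, a class II chaperone gene, at 2.2 and 1.27 against 26.5 to 53.1. Fcrla was at 0 in N4 and at 0.591 to 1.22 CPM elsewhere. All of these passed the test in both comparisons.

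Of 10 genes of B cell receptor signalling 4 fell in N4 against naive and the same number in N4 against T4 (medians -3.29 and -2.65). The kinase genes Lyn and Btk fell against naive, with log2 fold changes of -3.72 (SE 0.39, edgeR adjusted p = 0.0089) and -2.85 (SE 0.45, adjusted p = 0.018). The kinase gene Blk and the adaptor gene Blnk had 0 counts in N4, and reached 1.51 and 0.797 CPM at most elsewhere. Myeloid cells also express Lyn and Btk. Among 8 transcription factor genes 3 fell against naive, Bcl11a, Spi1 and Bach2, and 2 against T4, Bcl11a and Spi1 (medians -2.07 and -1.42). Bcl11a was at 1.83 and 1.24 CPM with N4, 16.7 and 16.1 with T4 and 8.37 and 8.52 among naive libraries. Spi1, which encodes PU.1 and is also a myeloid factor, was highest in naive libraries (77.8 and 98.2 CPM, against 23.8 and 23.7 in T4). Bach2 is also a gene of naive T cells. Spib, at 3.76 and 1.7 CPM in T4, did not pass the test.

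Among germinal centre genes, S1pr2, Gcsam and Rgs13 did not pass the test in any comparison. S1pr2 stood at 1.04 and 2.98 CPM in N4 and 5.53 to 6.4 elsewhere, Gcsam at 8.58 and 8.7 in naive libraries and at most 1.01 elsewhere, and Rgs13 was at 0 outside T4.

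Of 10 plasma cell genes beyond the 9, 2 fell in N4 against naive by edgeR, Tnfrsf17 and Tent5c, and none rose (median 0.49). Tnfrsf17, the BCMA receptor gene of plasma cells, was at 0 in N4, at 0.681 and 0.08 CPM in T4, at 2.24 in naive replicate 1 and at 16.3 in naive replicate 2. Tent5c, a poly(A) polymerase gene, stood at 3.39 and 1.95 CPM in N4 and 10 and 13.7 in naive libraries. Irf4 and Sec11c are also used by activated T cells or by most secreting cells. Their log2 fold changes in N4 against naive were 2.52 (SE 0.65, edgeR adjusted p = 0.058) and 1.26 (SE 0.38, adjusted p = 0.083). Of 18 genes of the unfolded protein response and secretion 2 rose in N4 against naive, the chaperone genes Hyou1 and Hsp90b1, and 2 fell, Ddit3 and Edem1 (median 0.28). Ddit3, a stress factor gene, fell in N4 against T4 too, with a log2 fold change of -2.66 (SE 0.28, edgeR adjusted p = 0.016). None of these lists had a call in T4 against naive by edgeR. Unadjusted p values under 0.05 and DESeq2 calls there numbered 2 and 2 for surface genes, 1 and 1 for signalling, 3 and 2 for transcription factors, 4 and 4 for plasma cell and 2 and 2 for secretion. Over all 23003 genes tested they numbered 3329 and 1995, so such counts are not particular to these lists.

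Families of the listed genes were split. Of 7 Ms4a genes Ms4a1, Ms4a6c and Ms4a7 fell in N4 against naive and Ms4a4b, a T cell gene, rose from 3575.5 and 4679.4 CPM to 8788.3 and 13273.6 (log2 fold change 1.42, SE 0.33, edgeR adjusted p = 0.046). Of 4 syndecan genes edgeR called Sdc3 lower in that comparison and DESeq2 called 2, and by edgeR Sdc4 (2.81 and 5.4 CPM in naive libraries, 0.195 and 0 in N4) was not called. Among 6 Siglec genes Cd33 and Siglece, genes of myeloid cells, fell in N4 against naive (list median -8.05, or -4.32 with bounds). Siglech, of plasmacytoid dendritic cells, was at 0 in N4 and in naive replicate 2.

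Antibody constant genes were summed for a view beside Jchain, and single genes differed in the naive libraries. Their summed level was 191.9 and 272.1 CPM with N4, 580.9 and 553.6 with T4, 2498.6 in naive replicate 1 and 38839.5 in naive replicate 2, and 9 of 10 fell in N4 against naive. Igha fell from 161 and 157.5 CPM in naive to 0.19 and 0.0977 in N4, while Igkc, the kappa chain gene, stood at 1587.3 and 34586.1 CPM in the naive libraries. Igkc made up most of the sum in both naive libraries. Ighm and Ighd were lower in naive replicate 2 (84.3 and 3.14 CPM) than in naive replicate 1 (196 and 6.47). In T4 Ighm lay within the naive range, at 107.8 and 87.9 CPM, and in N4 it was at 43.4 and 29.3. Constant genes of one class are close copies of each other, so their single values are less certain.

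Markers of other cells also differed between libraries, not all in the order of these genes, and their part in the results was not tested. All 8 T cell markers were present in every library, with sums of 3956.8 to 7444.5 CPM and no call in any comparison by edgeR (2 at an unadjusted p under 0.05 in each, and 2, 1 and 1 by DESeq2). Over all 23003 genes tested, 7080, 3329 and 6727 had such a p in N4 against naive, T4 against naive and N4 against T4. DESeq2 called 6186, 1995 and 5755 of all genes. Macrophage and monocyte sums ran from 16.9 to 20.3 CPM in N4, 256.5 to 269.7 in T4 and 2355.8 to 2695.6 in naive libraries, and 10 of 10 fell in N4 against naive, with Adgre1 at 0 in N4 and Cd5l at 0 in T4. Neutrophil sums were 38.8 to 47.5, 6.38 to 12.9, and 2442.3 and 25225.8 CPM, 7 of 8 fell in that comparison, and Cxcr2 was at 0 in N4. Red cell sums were 359.8 to 422.7, 6509.5 to 8122.8, and 3446.8 and 9231.5 CPM, the same order of libraries as Cd79a except that both T4 libraries were exchanged. Alas2 was at 0 in N4, and 6 of 7 red cell markers fell against naive and 5 against T4. Dendritic cell sums were 58.9 to 68.6 CPM in N4, 419.3 to 431.4 in T4, and 1652.3 and 1215 in naive replicates 1 and 2. Of these markers 5 of 8 were lower in N4 against naive, with Flt3 at 0 in N4 replicate 2. Natural killer sums were 35.4 to 47.1 CPM in N4, 371.8 to 406.5 in T4, and 929.2 and 2932.2 in naive replicates 1 and 2. Of these, 5 of 5 were lower in N4 against naive, with Klra8 at 0 in N4 replicate 2. Plasmacytoid dendritic cells also use Jchain, Mzb1 and Xbp1. Sums of their 6 markers were 30 to 35.7 CPM in N4, 27.1 to 28 in T4 and 21.4 to 24.9 in naive libraries, 2 fell in N4 against naive, and Siglech and Klk1 were at 0 in N4.

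**Figure D4:**
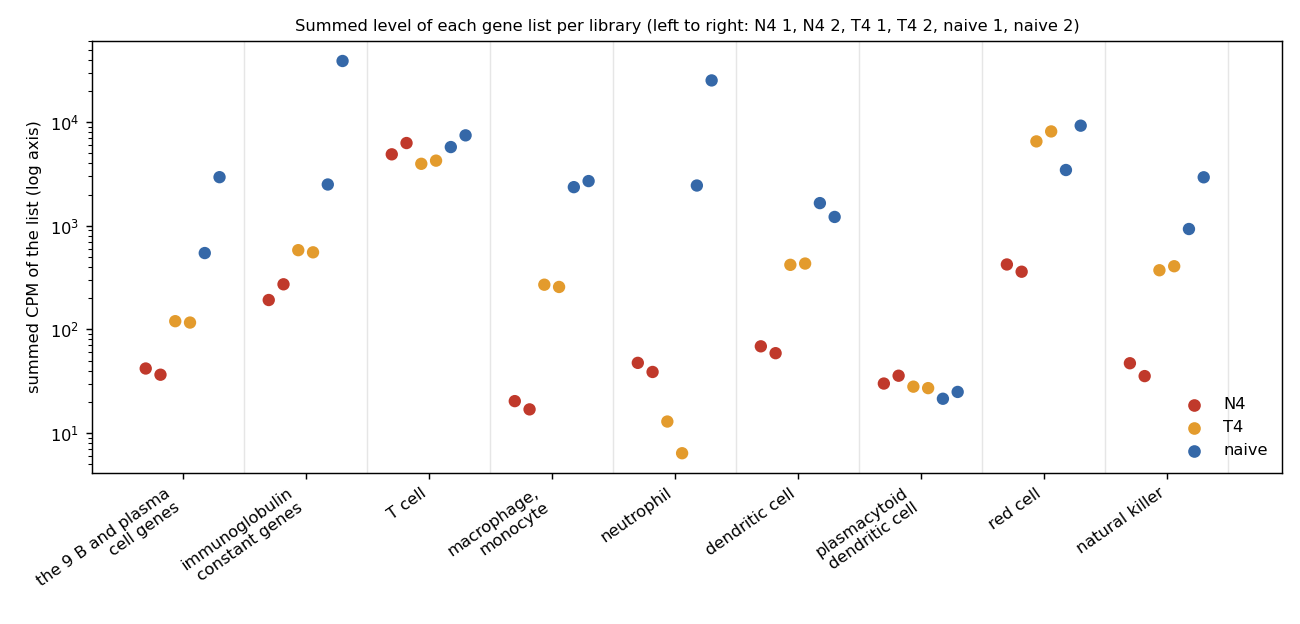
Summed TMM-scaled CPM of the 9 genes, the immunoglobulin constant genes and the marker lists of other cells in the 6 libraries, on a log axis. The 9 genes run from 36.5 CPM in N4 to 2940.2 in naive replicate 2, and neutrophil markers and immunoglobulin constant genes are also highest in that library. T cell markers stay between 3956.8 and 7444.5.

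Genes with the most similar pattern to Cd79a, Jchain and Xbp1 were sought among 8539 others whose mean log2 CPM reached 1, leaving out predicted genes, RIKEN clones, pseudogenes and receptor segments, by Pearson correlation of log2 CPM over the 6 libraries, which form 3 groups and share their composition. Closest to Cd79a were Rbks and Lmo2 (0.998 each), Arrb1 and the globin gene Hba-a1 (0.997 each) and Hacd1 (0.996). Those nearest to Jchain were Card19 (0.997), Mgst1 (0.991), Tmem50b (0.99), Irgm2 and Wfdc17 (0.989 each). Xbp1 was followed by Wfdc21 (0.991), Chil3 (0.99), S100a9 (0.984), S100a8 (0.982) and Tnfrsf18 (0.981). S100a8 and S100a9 are neutrophil genes and stood at 1118 and 983.4 CPM in naive replicate 1 and at 11643.7 and 9183.5 in naive replicate 2. Among the 9 genes the correlation was 0.99 for Cd79a and Ms4a1, 0.96 for Cd79a and Cd79b, 0.98 for Mzb1 and Sdc1, and 0.93 for Jchain and Xbp1, but 0.63 for Cd79a and Jchain and -0.35 for Cd22 and Xbp1.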

How the data were processed

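The authors deposited estimated counts per gene and per transcript, as whole numbers that were not normalized; both tables were used as deposited. The submitters' processing notes list, unordered and without roles, DESeq2 1.30.1, R 4.0.5, StringTie 2.1.0, SAMtools 1.9, STAR 2.7.1a and the build mm39. The sources used here do not give the annotation release, read length or strand setting. Libraries held 269033066 to 335968843 estimated counts, which need not equal reads, so intervals cover counting error only and can be too narrow. A symbol was found for 94% of identifiers. Models, lengths and overlaps came from GENCODE M21 (GRCm38).

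Genes were tested with edgeR 4.0.16 in R 4.3.3: TMM (factors 0.641 to 1.36), filterByExpr, quasi-likelihood test with 1 mean per group fitted to all 6 libraries, Benjamini-Hochberg adjustment over 23003 genes, threshold 0.05. DESeq2 1.42.0 was an alternative. SE came from the fold change and the test statistic F. CPM per kb sums transcript CPM over transcript length. Libraries of a group differed by far more than sampling noise (chi-square per degree of freedom 118.4 to 2206.5). The procedure was tested on simulated counts, but no outcome of that is given here, so the calls draw no support from it. Named genes are the 9, up to 4 per list with the smallest p in any comparison, and the 5 most similar to Cd79a, Jchain and Xbp1; Syndecan, Ms4a and Siglec families, immunoglobulin constant genes and markers of other cells were listed too. Igkc, Ighm and Tnfrsf13c were chosen after their values were seen. Members and lists were chosen with earlier results of these data known. Some listed genes are not reported here.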

Additional observations from a re-analysis of the deposited data

How the results depend on the processing

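With 2 libraries a group the calls depended on the fit. In N4 against naive 2772 genes were called, 6186 with DESeq2, 4257 with no filter, 1044 in a fit of only these groups, and 639 to 4487 with 1 library left out. In T4 against naive 27 were called, 1995 with DESeq2, 0 with RLE size factors, 53 with library size scaling, 956 with no filter, 0 with only these groups, and 0 to 357 with 1 library left out. In N4 against T4 1830 were called, 5755 with DESeq2, 3834 with no filter, 5281 with only these groups, and 0 to 4547 with 1 library left out. Of the 9 genes, N4 against naive had 5 called, 6 with DESeq2, 2 with only these groups and 0 to 5 with 1 library left out. T4 against naive had 0 called, 4 with DESeq2, 2 with no filter and 0 to 2 with 1 library left out. N4 against T4 had 3 called, 5 with DESeq2, 5 with no filter, 6 with only these groups and 0 to 6 with 1 library left out. With the replicate number as a block, 130 genes were called in T4 against naive, 3367 in N4 against T4 and 3620 in N4 against naive, with 0, 4 and 5 of the 9; the numbers carry no stated pairing, and deviations of same-numbered libraries correlated at 0.02 to 0.08.

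Log2 fold changes that turned sign were all of values not called. Xbp1 in N4 against T4 (0.12) was -0.74 with library size scaling, -0.03 with no filter, and -0.04 to 0.19 with 1 library left out, lowest without T4 replicate 2. With 1 library left out in T4 against naive, Cd79a ran from -0.61 to 1.49, Ms4a1 from -0.06 to 0.84 and Sdc1 from -2.35 to 0.15, the first of each without naive replicate 1 and the last without naive replicate 2. Pax5 ran from -1.04 (without T4 replicate 2) to 7.39, and was -0.70 without naive replicate 1. Cd22 in N4 against naive ran from -1.73 to 0.37, likewise without naive replicate 1 and 2. The cause was not tested. Library size scaling shifts the median of all genes by -0.56, 0.29 and -0.85 in N4 against naive, T4 against naive and N4 against T4. Low counts limit Pax5, Sdc1 and Cd22.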
